A study of Homo sapiens with 12 samples.

Results

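The miR-320 family was described in Hep3B xenografts, tumours grown from a human line of hepatocellular carcinoma. There were 3 small RNA libraries from a control group and 3 from a group given bufotalin, a cardiac steroid of toad venom. The members are the rows of the small RNA table named miR-320 followed by a letter or a hyphen: hsa-miR-320a-3p, hsa-miR-320a-5p, hsa-miR-320b, hsa-miR-320c, hsa-miR-320d and hsa-miR-320e, 6 of 1451 features. The 2 miR-3200 rows begin with the same letters but carry another miRNA number, and were kept apart. The family was chosen by the counts of miR-320b and miR-320c in bufotalin against control libraries, the same libraries described here, so the values of its members under treatment are given as a description, without a test. Total RNA of 3 control and 3 bufotalin libraries was measured as well.

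All groups share the Hep3B line. The treatment of the control group, the dose and duration of bufotalin, the host animal, and whether replicates were separate animals are not given in the sources used here. All p-values below thus rest on the spread among these samples, part or all of which may be technical. Although the series speaks of treated Hep3B cells, the sample labels name xenografts, in which cells of the host may remain. In bulk tumour RNA, fewer cells of a type and less RNA per cell cannot be told apart.

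MicroRNAs guide Argonaute proteins to messenger RNAs, mainly through the seed, bases 2 to 8 from the 5′ end. miR-320a is known for an unusual start: its hairpin is made directly by RNA polymerase II with a cap at its 5′ end, needs no Drosha cut, and is trimmed by Dicer, so that the 3p arm is the one kept. Its relatives miR-320b to miR-320e arose later as copies in primates, whereas the mature miR-320a-3p is conserved between human and mouse. In liver and other tumours miR-320a is mostly described as a growth-restraining miRNA.

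The mature sequences are shown because most of the letters of one member are also those of the next (RefSeq, GRCh38.p14, capitals mark the seed).
miR-320b: aAAAGCUGgguugagagggcaa
miR-320c: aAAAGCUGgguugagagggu
miR-320d: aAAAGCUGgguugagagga
miR-320e: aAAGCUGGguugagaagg
miR-4429: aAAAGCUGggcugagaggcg
miR-320b, miR-320c and miR-320d share the seed AAAGCUG. Among 2370 mature names in the RefSeq table searched, which did not include miR-320a, 4 carried this seed: miR-320b, miR-320c, miR-320d and miR-4429. miR-320e starts 1 base further in, so its seed reads AAGCUGG, and it differs from miR-320b by G17A, with positions counted from the 5′ end of miR-320b. miR-320c first differs from miR-320b by C20U, after 19 identical bases. miR-320d first differs by G19A, after 18 identical bases. miR-4429 shares 10 bases with miR-320b before U11C.

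The run of 18 bases common to miR-320b, miR-320c and miR-320d was found in 3 mature names and in 6 of 1562 hairpins of the same table, all 6 of these members; miR-320a was not searched. A read that ends within those 18 bases therefore has the letters of at least these 3, and whether it also has those of miR-320a-3p was not examined. How the authors treated reads that match several miRNAs was not stated in the labels. This bears on every level, ratio and share of single members below, and on the sums over members. Outside the family, some pairs of rows had equal values in all 6 libraries, among them miR-122-5p with miR-122b-3p and miR-338-3p with miR-3065-5p. Whether reads were counted in more than 1 row of the family was not tested. The 4 hairpins of miR-320b and miR-320c are shown with the mature miRNA in capitals, which lies on the 3′ arm of each.
MIR320B1: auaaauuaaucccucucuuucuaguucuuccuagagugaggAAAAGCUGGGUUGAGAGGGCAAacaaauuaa
MIR320B2: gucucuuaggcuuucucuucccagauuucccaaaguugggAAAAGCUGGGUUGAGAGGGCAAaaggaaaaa
MIR320C1: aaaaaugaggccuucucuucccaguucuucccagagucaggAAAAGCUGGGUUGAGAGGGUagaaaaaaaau
MIR320C2: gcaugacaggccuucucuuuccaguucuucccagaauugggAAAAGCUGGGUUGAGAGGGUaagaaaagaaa
MIR320B1 lies at chr1:116671746-116671817 on the plus strand, 3991 bases from IGSF3. MIR320B2 lies at chr1:224257040-224257110 on the minus strand, within the bounds of NVL. MIR320C1, at chr18:21683518-21683589, and MIR320C2, at chr18:24321675-24321746, are both on the plus strand, within the bounds of ABHD3 and OSBPL1A. The miR-320d hairpins lie on chromosomes 13 and X, and that of miR-320e on chromosome 19. No reads by locus were given, so the copies of miR-320b, of miR-320c and of miR-320d cannot be told apart.

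Library totals were 1869893 to 4197636 counts, and replicates of a group differed by far more than counting error (chi-square per degree of freedom 275 to 634). Levels are given as deposited TPM, which here are counts scaled to 1 sum in every library without a length correction. Bufotalin replicate 2 stood apart in blood markers: the 5 listed erythroid miRNAs, all detected in both groups, summed to 42360 TPM there, against 523 to 686 TPM in control libraries and 451 and 755 TPM in the other bufotalin libraries. The 5 leukocyte miRNAs summed to 249.7 TPM there and to 2.95 to 11.8 TPM elsewhere. The 3 detected skeletal muscle miRNAs summed to 421 TPM there, against 50.6 to 156 TPM elsewhere. Nearly all of that 421 TPM was miR-1-3p, at 418 TPM, while miR-206 had 0 counts in bufotalin replicate 2. The 4 endothelial and smooth muscle miRNAs summed to 2283 to 2658 TPM in all 6 libraries, but 2 of them had TPM means that differed in opposite directions. miR-143-3p, of smooth muscle and fibroblasts, was at 454, 489 and 107 TPM in control and at 674, 641 and 674 TPM in bufotalin libraries, so that its groups did not overlap either, though edgeR did not call it (log2 fold change 1.19, SE 0.42, adjusted p 0.101). miR-126-3p, of endothelium, was at 1997, 2118 and 2237 TPM in control and at 1585, 1619 and 1974 TPM in bufotalin libraries, and its groups overlapped after TMM scaling (edgeR log2 fold change -0.15, SE 0.31, adjusted p 0.817). The hepatocyte marker miR-122-5p was at 23.3, 24.3 and 115.5 TPM in control and at 36.4, 35.6 and 15.4 TPM in bufotalin libraries, while the 3 detected hepatocyte markers summed to 881 to 1616 and 1610 to 2061 TPM. The part of these cells in the results below was not tested beyond the values given without bufotalin replicate 2.

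miR-320a-3p was the main form, with 33476 of the family's counts over the 6 libraries, or 75.6%. It was at 1947, 2742 and 1819 TPM in control replicates 1, 2 and 3, and at 1904, 1936 and 2082 TPM in bufotalin replicates 1, 2 and 3. Control replicate 2 was the highest library, and the groups overlapped. edgeR's fit of bufotalin over control gave a log2 fold change of 0.05 (SE 0.26). The sign of this small value depends on the scaling, since library totals in place of TMM gave -0.14.

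The passenger arm, miR-320a-5p, had 3, 3 and 0 counts in the control libraries and 3, 1 and 1 counts in those given bufotalin. With 11 counts in all, the 5p arm held 0.0248% of the family's counts, and no difference was detectable at this depth. A count of 0 was taken to allow up to 3 counts, or 0.715 to 1.60 TPM depending on the library.

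hsa-miR-320b, 1 of the pair that led to the choice of the family, had 706, 661 and 341 counts in the control libraries and 864, 1612 and 1154 counts in those given bufotalin. These counts are 168, 322 and 168 TPM in control and 462, 483 and 404 TPM in bufotalin libraries. All bufotalin libraries were higher than all control libraries, and control replicate 2 stood between them and the other controls. The mean was 219 ± 88.9 TPM in control and 450 ± 40.7 TPM in bufotalin (SD, n = 3), and the fitted log2 fold change was 1.24 (SE 0.29).

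hsa-miR-320c, the shorter relative that ends 2 bases earlier, was at 107, 219 and 102 TPM in control and at 286, 300.03 and 250.1 TPM in bufotalin libraries. The order of the libraries was that of miR-320b, with no overlap between groups. Its mean was 143 ± 65.9 TPM in control and 279 ± 25.7 TPM in bufotalin (SD, n = 3), with a fitted log2 fold change of 1.18 (SE 0.30).

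miR-320d, shorter by another base, was at 66.2, 146 and 61.4 TPM in control and at 172, 182 and 166 TPM in bufotalin libraries. Again only control replicate 2 came near the bufotalin libraries. Its mean was 91.3 ± 47.5 TPM in control and 174 ± 8.25 TPM in bufotalin (SD, n = 3), with a fitted log2 fold change of 1.16 (SE 0.32). For the closely shared sequences of miR-320b, miR-320c and miR-320d, these are 3 readings with common letters and not 3 independent ones.

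**Figure D1:**
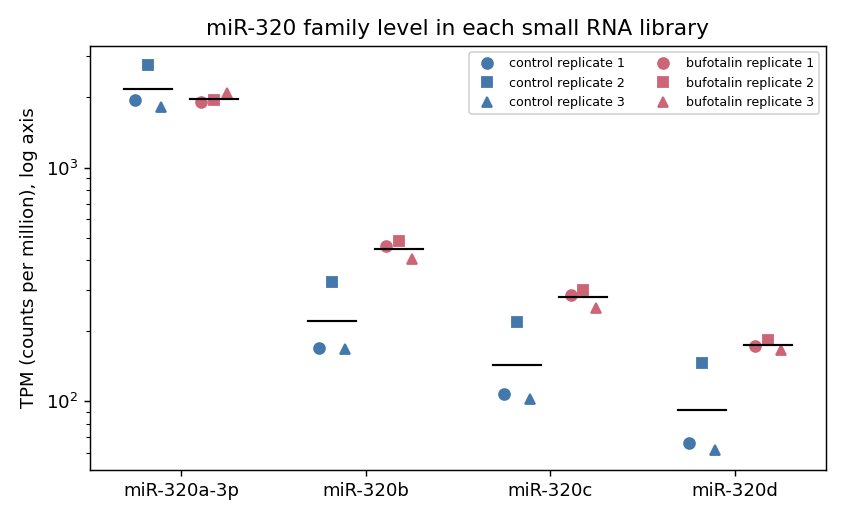
TPM (log axis) of miR-320a-3p, miR-320b, miR-320c and miR-320d in each of 3 control (blue) and 3 bufotalin (red) libraries, with the group mean as a line. miR-320a-3p overlaps between groups, while the bufotalin libraries of miR-320b (404 to 483 TPM) lie above all control libraries (168 to 322 TPM).

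The family's other rows were near the floor. miR-320e, with the shifted seed, had 1, 5 and 0 counts in the control libraries and 0, 1 and 0 counts in those given bufotalin. miR-4429, which carries the same seed as miR-320b, was counted only in bufotalin replicate 2, with 2 counts. Of the 6 members, 4 passed the filter on low counts, and miR-320a-5p and miR-320e did not.

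edgeR's quasi-likelihood test called 27 of 477 miRNAs, 5.66% of those tested, and 2.10% were called as higher in bufotalin libraries. miR-320b and miR-320c were 2 of these 27, which is what led to the choice of the family, so nothing is read from that count. Groups that did not overlap, with the bufotalin libraries higher, were seen for 3 of the 4 members that passed the filter, and for 13.8% of all miRNAs tested. These are the libraries and members that the choice rests on, so nothing is read from this count either. Without bufotalin replicate 2, the library with the blood miRNAs, the log2 fold changes of miR-320b, miR-320c and miR-320d were 1.22, 1.16 and 1.16.

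**Figure D2:**
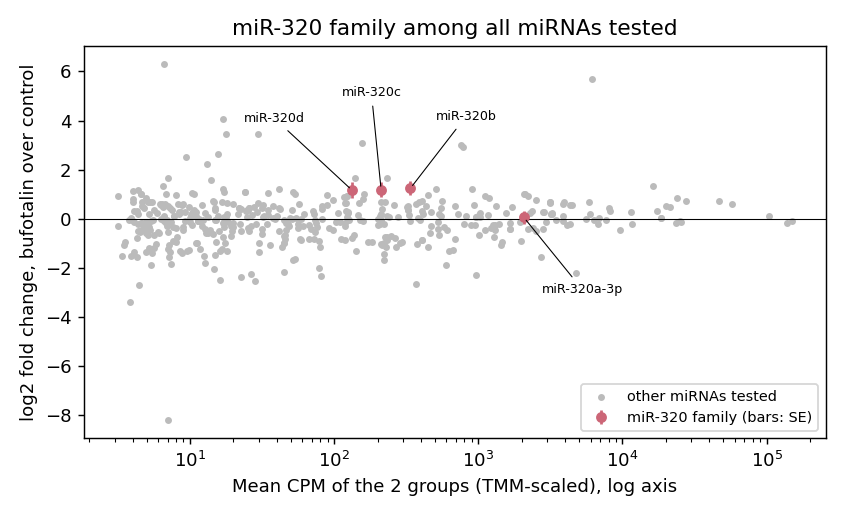
Log2 fold change of bufotalin over control against mean TMM-scaled CPM (log axis) for 477 miRNAs, 3 libraries per group, with the miR-320 members in red (bars, SE). miR-320b, miR-320c and miR-320d lie close together at 1.16 to 1.24, and miR-320a-3p at 0.05.

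The make-up of the family differed between the groups in a measure that needs no scaling between libraries. This measure can still depend on which cells each sample held, and the part of host cells in it was not tested. Per 100 counts of miR-320a-3p there were 8.64, 11.7 and 9.21 counts of miR-320b in control replicates 1, 2 and 3, and 24.3, 24.9 and 19.4 in bufotalin replicates 1, 2 and 3. The groups did not overlap, and the lowest bufotalin library was 1.65 times the highest control library. The means were 9.86 ± 1.65 and 22.9 ± 3.01 (SD, n = 3), a 2.32-fold difference that comes from the same libraries as the choice of the family and is not tested.

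As a share of all family counts, miR-320a-3p took 85.0%, 79.9% and 84.6% in control and 67.4%, 66.7% and 71.7% in bufotalin libraries. For control replicate 2, the library nearest to the bufotalin group, the 95% Wilson interval was 78.9% to 80.8%, and for bufotalin replicate 3, the nearest on the other side, 70.8% to 72.7%. miR-320b took 7.35%, 9.38% and 7.80% in control and 16.4%, 16.6% and 13.9% in bufotalin libraries. These intervals treat every read as a separate count and leave out the spread between libraries. Copies made by PCR cannot be told from separate molecules without molecular identifiers, so the intervals may be too narrow even for counting error.

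**Figure D3:**
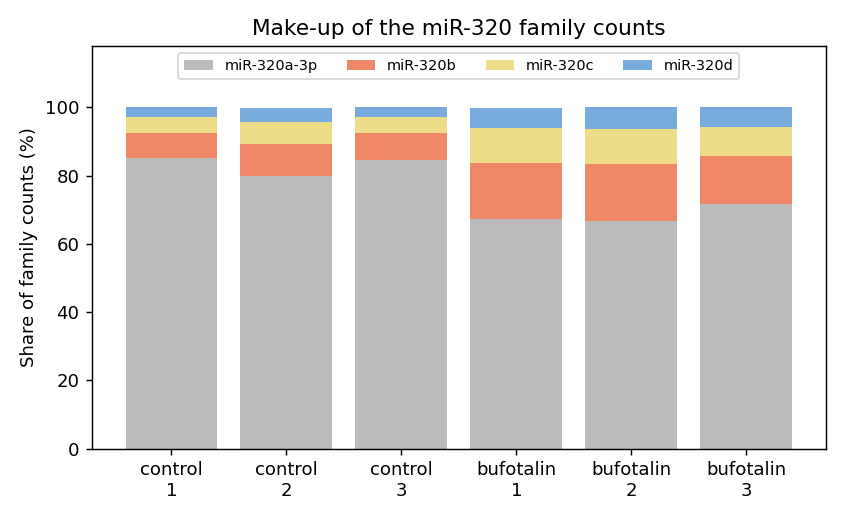
Share of the family's counts (%) taken by miR-320a-3p, miR-320b, miR-320c and miR-320d in each small RNA library, 1 bar per library. miR-320a-3p takes 79.9% to 85.0% in control and 66.7% to 71.7% in bufotalin libraries, and the other 3 members keep nearly the same proportions among themselves.

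Among themselves, miR-320b, miR-320c and miR-320d kept nearly the same proportions in every library. Per 100 counts of miR-320b there were 63.9, 67.9 and 60.7 counts of miR-320c in control and 61.8, 62.2 and 61.9 in bufotalin libraries. For miR-320d there were 39.4, 45.4 and 36.7 counts in control and 37.3, 37.8 and 41.1 in bufotalin libraries. Both ratios overlapped between the groups.

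Of the counts of these 3 members together, miR-320b took 46.9% to 50.7% in control and 49.3% to 50.2% in bufotalin libraries. In control replicate 2, which had the lowest share, the 95% Wilson interval of 44.3% to 49.5% overlapped that of each other library. Over the 6 libraries, after the group means were removed, Pearson's r of log2 CPM was 0.98 between miR-320b and miR-320c, 0.95 between miR-320b and miR-320d, and 0.54 between miR-320a-3p and miR-320b. These points share their libraries, and miR-320b, miR-320c and miR-320d share most of their sequence, so the values are a description only. How much sequence miR-320a-3p shares with them was not examined, so its lower r is not read as that of a distinct sequence.

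Summed over its members, the family made up 0.229%, 0.343% and 0.215% of the counts in control and 0.283%, 0.290% and 0.290% in bufotalin libraries. In TPM the sums were 2290, 3433 and 2150 in control and 2825, 2902 and 2903 in bufotalin libraries, and the groups overlapped because of control replicate 2. With TMM scaling, which gave control replicate 2 a factor of 1.32 and control replicate 3 a factor of 0.831, the sums were 2600.4 CPM or less in control and 2651 CPM or more in bufotalin libraries. The difference of mean log2 CPM was then 0.32, where the SD between replicates was 0.19. Without miR-320a-3p the sum was 343, 690.5 and 331 TPM in control and 921, 966 and 821 TPM in bufotalin libraries.

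Other miRNAs made without Drosha were looked at beside the family. miR-484, which also has a capped precursor, was at 704, 738 and 728 TPM in control and at 482, 587 and 401 TPM in bufotalin libraries. All bufotalin libraries were thus below all control libraries in TPM, but the groups overlapped after TMM scaling, and edgeR gave a log2 fold change of -0.44 (SE 0.29) with an adjusted p of 0.390. Of 20 listed mirtron arms, short hairpins cut out by splicing, 14 had counts. miR-877-5p was the most abundant, at 36.9, 75.5 and 74.2 TPM in control and at 57.2, 43.7 and 47.98 TPM in bufotalin libraries, and was not called (edgeR log2 fold change -0.20, SE 0.38, adjusted p 0.813). miR-1226-3p, with only 38 counts in all, went up, from 2.14, 1.46 and 0.49 TPM in control to 2.67, 2.69 and 3.85 TPM in bufotalin libraries. Each other detected mirtron arm had 10 counts or fewer in all. The difference between these miRNAs and the miR-320 members was not tested.

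In total RNA, 22 genes reported as targets of miR-320 were listed, and 6 of them were in the authors' table, a table limited to genes they picked as different in these very libraries. Of these 6, 4 rose, 1 fell and 1 was not called, at a median log2 fold change of 0.53, beside 0.13 over all 4273 genes tested. The median over all genes changed sign between settings, with -0.27 without bufotalin replicate 3 and 0.31 after scaling to equal medians. Nothing is therefore read from the distance between the medians. limma called 93.2% of the genes tested, 44.3% as higher and 48.8% as lower, so a count of calls says little about the list. The same holds for the limma p-values of single genes here and below. They were computed after that choice, on the same libraries, and are not separate evidence of a difference. Fold changes are on log2(FPKM + 1), which understates the change of low genes, and TFRC, MCL1, CDK6 and PFKM kept their calls in every setting tried.

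TFRC (chromosome 3, 196027183 to 196082096), the transferrin receptor that brings iron into cells, was at 74.2, 96.7 and 111 FPKM in control and at 533, 573 and 525 FPKM in bufotalin libraries. It rose by a log2 fold change of 2.54 (SE 0.16, limma adjusted p 1.8e-06). CDK6 (chromosome 7, 92604921 to 92836594), a kinase of entry into the cell cycle, was at 21.7, 22.0 and 23.2 FPKM in control and at 67.3, 86.4 and 92.1 FPKM in bufotalin libraries. It rose by 1.82 (SE 0.13, limma adjusted p 3.6e-06). MCL1, which protects cells from apoptosis, rose by 0.80 (SE 0.13) from 80.2 ± 10.2 to 140.1 ± 10.3 FPKM (SD, n = 3; limma adjusted p 0.00025).

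PFKM (chromosome 12, 48105139 to 48146404), a phosphofructokinase of glycolysis, was at 56.5, 54.6 and 68.4 FPKM in control and at 24.4, 21.8 and 20.9 FPKM in bufotalin libraries. PFKM was the 1 listed gene that fell, by a log2 fold change of -1.38 (SE 0.12, limma adjusted p 9.5e-06). RAC1, a small GTPase of cell movement, rose by 0.27 (SE 0.11, limma adjusted p 0.0349), but quantile normalization turned it to -0.03. Its call was lost in 6 more settings: the replicate block, each control replicate left out, and bufotalin replicate 2 or 3 left out. FOXM1, a transcription factor of dividing cells, had 0.13 (SE 0.12) and was not called (limma adjusted p 0.305), though it was called at 0.31 after scaling to equal medians.

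Of 16 listed biogenesis and export genes, 4 were in the table, and 3 rose, where 93.2% of all genes tested were called and 44.3% were called higher. Under quantile normalization 1 of the 4 was called. TARBP2, the partner of Dicer, was at 11.3, 11.8 and 11.4 FPKM in control and at 19.7, 17.3 and 15.7 FPKM in bufotalin libraries (log2 fold change 0.56, SE 0.12, limma adjusted p 0.0012). DDX5, a helicase of the Drosha complex, rose by 0.53 (SE 0.12, limma adjusted p 0.0019), and by 0.29 without a call under quantile normalization. SRRT, which links the cap-binding complex to miRNA processing, rose by 0.36 (SE 0.16), with a limma adjusted p of 0.0467, and lost its call in 7 other settings, control replicate 2 or 3 or bufotalin replicate 2 or 3 left out among them. NCBP2, the small subunit of the cap-binding complex, was at 11.7, 25.0 and 43.4 FPKM in bufotalin libraries against 11.3 to 16.7 FPKM in control, and was called only without bufotalin replicate 1 (log2 fold change 1.18, against 0.71).

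Of 16 listed Argonaute and silencing genes, 6 were in the table, of which 5 rose and 1 fell, beside 44.3% called higher and 48.8% called lower among all genes tested. AGO2, the Argonaute that can cut its targets, was at 21.3, 20.4 and 24.4 FPKM in control and at 30.5, 35.5 and 48.2 FPKM in bufotalin libraries (log2 fold change 0.74, SE 0.16, limma adjusted p 0.0019). DDX6, a helicase of translational repression, rose by 0.57 (SE 0.12, limma adjusted p 0.0012). PAN2, a deadenylase subunit, fell from 7.58 ± 1.59 to 2.28 ± 0.506 FPKM (SD, n = 3; log2 fold change -1.38, SE 0.16, limma adjusted p 4.4e-05). TNRC6A, CNOT1 and DCP2 rose by 0.39, 0.38 and 0.69, and each lost its call in 5 other settings, so that 3 of the 6 genes were called without control replicate 2 or without bufotalin replicate 3. Under quantile normalization CNOT1 was at 0.07.

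Of 18 listed symbols for tailing and decay genes, some of them older and newer names of the same gene, 2 were in the table. Both rose, where 93.2% of all genes tested were called and 44.3% were called higher. TUT7, which adds uridines to miRNA precursors, was at 10.4, 9.07 and 9.38 FPKM in control and at 12.9, 14.1 and 18.2 FPKM in bufotalin libraries, a rise of 0.59 (SE 0.14, limma adjusted p 0.0027). TENT4B, a noncanonical poly(A) polymerase, rose by 0.41 (SE 0.18), with a limma adjusted p of 0.0457 that was lost in 6 other settings, among them control replicate 1 or 2 or bufotalin replicate 1 or 2 left out. Bufotalin replicate 3 was the highest library for AGO2, DDX6 and TUT7.

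**Figure D4:**
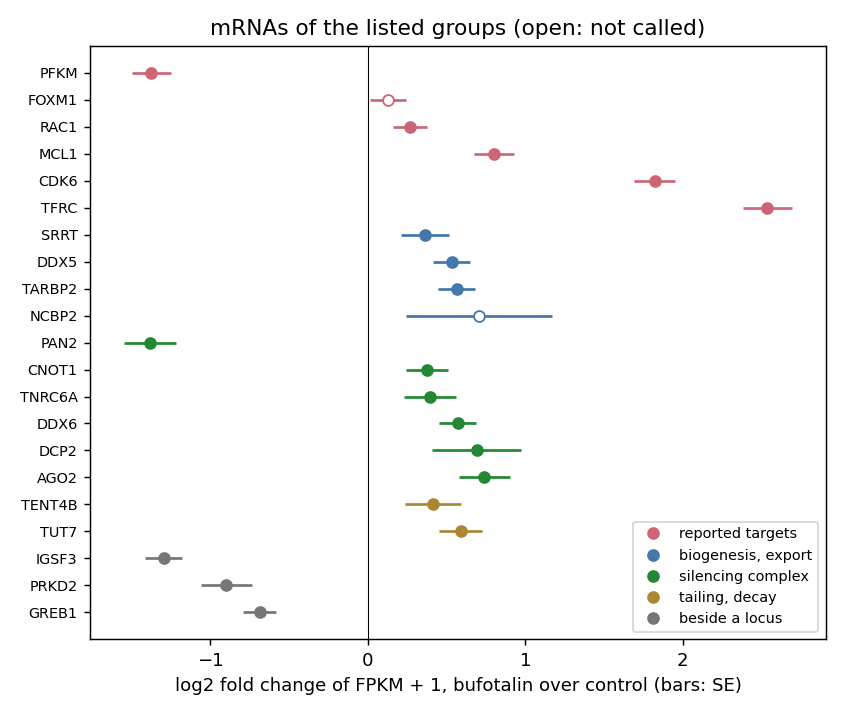
Log2 fold change of FPKM + 1, bufotalin over control, with SE (bars), for the 21 listed and neighbouring genes of the mRNA table, 3 libraries per group; open points were not called. Genes of maturation, silencing and tailing lie at 0.36 to 0.74 except PAN2 (-1.38), and reported targets range from -1.38 (PFKM) to 2.54 (TFRC).

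Of the genes beside or around the family's loci, 2 were in the mRNA table, IGSF3 and PRKD2, and both fell, as did 48.8% of all genes tested in that selected table. IGSF3, an immunoglobulin-type membrane protein beside MIR320B1, was at 14.4, 13.8 and 17.1 FPKM in control and at 5.58, 5.18 and 5.91 FPKM in bufotalin libraries (log2 fold change -1.30, SE 0.12, limma adjusted p 9.5e-06). PRKD2, a protein kinase whose bounds hold MIR320E, fell from 12.2 ± 2.27 to 6.07 ± 1.203 FPKM (SD, n = 3; log2 fold change -0.90, limma adjusted p 0.00055). GREB1, whose bounds hold MIR4429 of the same seed and no family locus, had means of 0.911 FPKM in control and 0.185 FPKM in bufotalin libraries. These levels are close to the minimum of 0.5 FPKM, and GREB1 was not fitted without control replicate 2 or 3. Its log2 fold change was -0.69 (limma adjusted p 0.00019), and -0.14 without a call under quantile normalization. NVL, ABHD3 and OSBPL1A, around the other miR-320b copy and both miR-320c copies, were not in the mRNA table. Neither was POLR3D, 96 bases from MIR320A, so the levels of these genes were not analysed here.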

How the data were processed

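The authors deposited read counts per mature miRNA with TPM beside them (equal to counts scaled to 1 sum in each library, within 4.37e-10), and FPKM per gene for 4988 genes they selected. Per the submitters' processing notes, DESeq2 1.20.0, featureCounts 1.5.0-p3, HISAT2 2.0.5, fastp and CASAVA 1.8 were used with GRCh38; which tool made which values is not given in the sources used here. Counts were fitted with edgeR 4.0.16 (its robust quasi-likelihood test, TMM scaling, and filterByExpr by group), and log2(FPKM + 1) with limma 3.58.1 (trended, robust eBayes) where a gene's mean reached 0.5 FPKM. Both tests are two-sided, without covariates, with Benjamini-Hochberg adjustment over all features and a threshold of 0.05, and were tested on simulated data. CPM for correlations had 0.5 added before log2. Total RNA depth is unknown: at most 9 of 231 ratios of FPKM under 0.1 in a library pair were equal to 3 decimals, so whole reads were not recovered.

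Named features were all family rows, miRNAs with the seed of miR-320b, the 5 miRNAs most correlated with the summed family, listed miRNA markers, and listed or neighbouring genes in the mRNA table. The members and lists were chosen with earlier results of these data known, and the lists of targets and of miRNA maturation genes come from general knowledge. Sequences are RefSeq's (GRCh38.p14), matched by name; miR-320b to miR-320e and miR-4429 matched. Alternatives covered scaling, filters, pseudocount, DESeq2 1.42.0, the replicate block and each library left out. Further software was matplotlib 3.10.9, scipy 1.17.1, pandas 2.3.3, numpy 2.4.6, Python 3.11.15 and R 4.3.3.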

Additional observations from a re-analysis of the deposited data

How the results depend on the processing

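The log2 fold changes of miR-320b, miR-320c and miR-320d stayed above 0 in all 11 alternatives without a block, at 1.04 to 1.34, 0.97 to 1.34 and 0.93 to 1.37, and that of miR-320a-3p ranged from -0.14 to 0.13. The summed family differed by 0.16 to 0.39. Leaving the erythroid and leukocyte miRNAs out of the library totals was chosen after seeing the data and gave 1.24 for miR-320b. The number of miRNAs called, 27 by edgeR (124 at an unadjusted p under 0.05), was 62 with DESeq2's Wald test and 6 to 40 when single libraries were left out (13, 8 and 6 without bufotalin replicate 1, 2 and 3). Library totals moved the median log2 fold change of all miRNAs from -0.04 to -0.20, and with them the members by about the same amount.

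Replicates of the groups share numbers in the labels. Same-numbered libraries had correlations of their deviations from the group means of 0.13, 0.03 and 0.36 in small RNA. In total RNA the correlations were -0.02, 0.03 and -0.05. With 3 libraries per group, such values cannot decide whether same-numbered samples share more than a number. With the replicate block, 3 miRNAs were called, miR-320b was at 1.26 and miR-320a-3p at 0.04, and 1 of the 2 tailing and decay genes stayed called.

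In total RNA, 190 of 229 combinations of a named gene and a setting kept call and direction, 36 lost the call and 2 gained it. The log2 fold change of RAC1 turned to -0.031 under quantile normalization, where 1 biogenesis gene was called in place of 3. Tailing and decay genes called were 1 with no FPKM minimum and 1 to 2 when single libraries were left out. Argonaute and silencing genes called were 3 to 6 when single libraries were left out. Calls among all genes also moved, from 3981 in the main fit to 3256 under quantile normalization and 4456 with no FPKM minimum. With single libraries left out, 3728 to 3876 genes were called. The cause of these changes was not tested.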

Other observations

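The miRNAs whose level over the 6 libraries was most like the summed family were miR-30a-5p (Pearson's r of log2 CPM 0.96), miR-212-3p (0.93), miR-146b-5p (0.92), miR-22-5p (0.92) and miR-409-3p (0.91). These points share their libraries and the 2 treatment groups, and the values are a description. miR-146b-5p had means of 111 CPM in control and 353 CPM in bufotalin libraries, and miR-212-3p 25.2 and 57.4 CPM.

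For miR-320b alone, a measure added after the values were seen, the highest were miR-1246 (r 0.99), miR-3065-5p and miR-338-3p (0.97 each), miR-147b-3p (0.97) and the predicted novel_633 (0.95). The rows of miR-3065-5p and miR-338-3p were equal to each other in all 6 libraries, with means of 85.1 CPM in control and 161.7 CPM in bufotalin libraries. miR-1246 had means of 32.4 and 277 CPM. None of these 5 was among the 5 nearest to the summed family, of which miR-320a-3p is the larger part.

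The rows that share only their first letters with the family had a lower mean TPM in bufotalin libraries, unlike miR-320b, miR-320c and miR-320d. The mean of miR-320a-3p was lower as well, at 2169 TPM in control and 1974 TPM in bufotalin libraries. miR-3200-3p was at 10.5, 21.4 and 15.7 TPM in control and at 5.35, 5.69 and 9.11 TPM in bufotalin libraries, and was not called by edgeR (log2 fold change -1.01, SE 0.47, adjusted p 0.2004). miR-3200-5p had 21 counts in all, 10 of them in bufotalin replicate 2.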
